A study of Rattus norvegicus with 2 samples.

Results

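The genes described here code for the contractile apparatus of heart muscle, namely the thin and thick filaments of the sarcomere, the Z-disc and M-band that hold the filaments in register, and proteins that fold, turn over or protect them. They were taken from a list of 34 symbols, of which 33 were found by symbol among the 25399 genes measured, and *Tcap* was not analysed here. Cardiac cells of Sprague-Dawley rats aged 1 to 3 days, pooled from males and females, were enriched on a Percoll gradient for intrinsic cardiac adrenergic (ICA) cells, catecholamine-making cells of the heart, and then cultured. The control group received saline and the LPS group received 1 µg/ml lipopolysaccharide (LPS, 055:B strain), a bacterial membrane component that activates Toll-like receptor 4, both for 2 h. Each group gave 1 library of the 10X Genomics 3′ kind, in which unique molecular identifiers (UMIs) count mRNA molecules per gene and cell. The study asked how LPS acts on ICA cells and cardiomyocytes. By its methods the tissue was ventricular, from the apical part of the heart, and the light band of the gradient was taken, so that the cardiomyocytes measured are those, immature ones among them, that stayed outside the main myocyte band.

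The control library held 11531 cells with a median of 12479 UMIs and the LPS library 12689 cells with a median of 9432 UMIs. Cells were grouped by the 11 clusters the authors deposited, and the 2 control and 8 LPS cells without a cluster were left out. Of the barcodes, 194 occurred in both libraries, 1 of them among the cells of cluster 3. A level is the UMIs of a gene summed over the cells of a class, per 1000000 UMIs of that class (CPM). There was 1 library per condition, hence no replicate and no test. The 95% intervals in parentheses are exact Poisson intervals for levels, exact conditional intervals for ratios and Clopper-Pearson intervals for shares, and they cover counting error only. Any difference between the libraries includes a difference in their handling, and fewer molecules per cell cannot be told apart from a larger total of other RNA. UMIs were not divided by gene length. How completely the UMIs of each gene were captured was not tested. Levels are therefore compared mainly between conditions and clusters for 1 gene at a time, and between genes chiefly as shares of isoform pairs.

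In the sarcomere, myosin heads of the thick filament pull on actin of the thin filament when calcium binds troponin C and tropomyosin moves aside. The troponin, actin, myosin and light chain genes each have several members, and around birth the rat ventricle is known to exchange fetal for adult forms, *Tnni1* for *Tnni3* and *Myh7* for *Myh6*. The Z-disc anchors the thin filaments and also senses stretch through proteins such as muscle LIM protein (*Csrp3*) and the ankyrin repeat protein *Ankrd1*. The ubiquitin ligases *Trim63* and *Trim55* and the chaperones *Unc45b* and *Cryab* keep the apparatus in repair. Serum response factor, which binds the CArG box, and MEF2, which binds an A- and T-rich site, are well known regulators of such genes.

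The promoters of RefSeq (rat build GRCr8, 250 bases before to 50 after each gene's start) held 28 windows for 25 of the listed genes. *Ankrd1*, *Tnnc1*, *Cryab*, *Myl2*, *Csrp3*, *Nrap*, *Trim55*, *Myom2* and *Tcap* had no entry. The CArG box, searched on both strands, was in the windows of 5 of the genes (*Acta1*, *Actc1*, *Ldb3*, *Myl3* and *Nebl*) against 1.64% of all 33469 windows, and the MEF2 site in those of *Mybpc3*, *Myoz2*, *Smpx*, *Synpo2l* and *Xirp1*, 6 windows of 5 genes, against 3.29%. The E-box CANNTG was in 25 of the 28 windows and in 72.1% of all, TATAAA in 5 and 14.2%, AGATAA in 5 and 11.6%, and CATTCC in 6 and 14.2%. A form of the NF-κB site, looked for after the values were seen, was in 0 of the 28 windows and 1.3% of all. A match is a description of the letters and not a site of binding. The 150 bases before the start are printed for 3 windows with a CArG box and 2 with a MEF2 site, both in capitals, because these motifs were more frequent among the genes than among all promoters. They are also printed for *Myl4*, the gene that stood apart outside cluster 3, with TATAAA in capitals where it was read on the reverse strand. Their positions are chr19:68784195-68784344 (minus strand) for *Acta1*, chr8:119616944-119617093 (plus) for *Myl3*, chr16:9924680-9924829 (minus) for *Ldb3*, chr2:213852779-213852928 (minus) for *Myoz2*, chr3:97550911-97551060 (plus) for *Mybpc3* and chr10:89976000-89976149 (plus) for *Myl4*, and all run 5′ to 3′ along the gene.
Acta1: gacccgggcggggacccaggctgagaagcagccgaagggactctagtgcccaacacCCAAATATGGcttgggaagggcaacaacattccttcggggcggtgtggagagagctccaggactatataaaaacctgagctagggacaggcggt
Myl3: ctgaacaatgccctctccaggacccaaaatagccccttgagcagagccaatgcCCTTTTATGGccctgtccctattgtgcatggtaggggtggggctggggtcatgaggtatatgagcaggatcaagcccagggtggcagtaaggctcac
Ldb3: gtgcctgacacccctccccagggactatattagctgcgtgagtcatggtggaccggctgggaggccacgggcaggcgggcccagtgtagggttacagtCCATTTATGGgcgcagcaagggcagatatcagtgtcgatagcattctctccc
Myoz2: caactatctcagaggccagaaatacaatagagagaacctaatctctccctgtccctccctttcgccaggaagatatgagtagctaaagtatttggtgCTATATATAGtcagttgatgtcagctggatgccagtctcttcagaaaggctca
Mybpc3: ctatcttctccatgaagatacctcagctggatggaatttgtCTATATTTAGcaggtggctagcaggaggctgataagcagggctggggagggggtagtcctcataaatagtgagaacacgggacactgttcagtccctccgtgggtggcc
Myl4: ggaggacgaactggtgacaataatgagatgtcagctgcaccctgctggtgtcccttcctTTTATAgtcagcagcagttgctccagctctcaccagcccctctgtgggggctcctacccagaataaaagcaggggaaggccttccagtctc

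The contractile genes were concentrated in cluster 3, named ICA and Cardiomyocyte in the cell table, which held 836 control and 929 LPS cells, at medians of 7526 and 5269 UMIs. Summed over the 33 genes, the level there was 24458 CPM (24343 to 24574) in control and 25656 CPM (25522 to 25790) in LPS cells. Among the other clusters cluster 9 followed with 4394 and 4438 CPM, and in the remaining 9 the sum lay between 717 and 1653 CPM in control and between 593 and 1348 CPM in LPS cells. Cluster 3 gave 4.64% and 4.30% of the UMIs of its library and 51.2% and 54.3% of the UMIs of the 33 genes. These genes helped to form the clusters, so their concentration is a description. In the plot of the sum per cell the medians of cluster 3 also stand highest. The median cell of cluster 9 was far below its pooled level, at 1597 CPM in control and 1565 CPM in LPS.

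**Figure D1:**
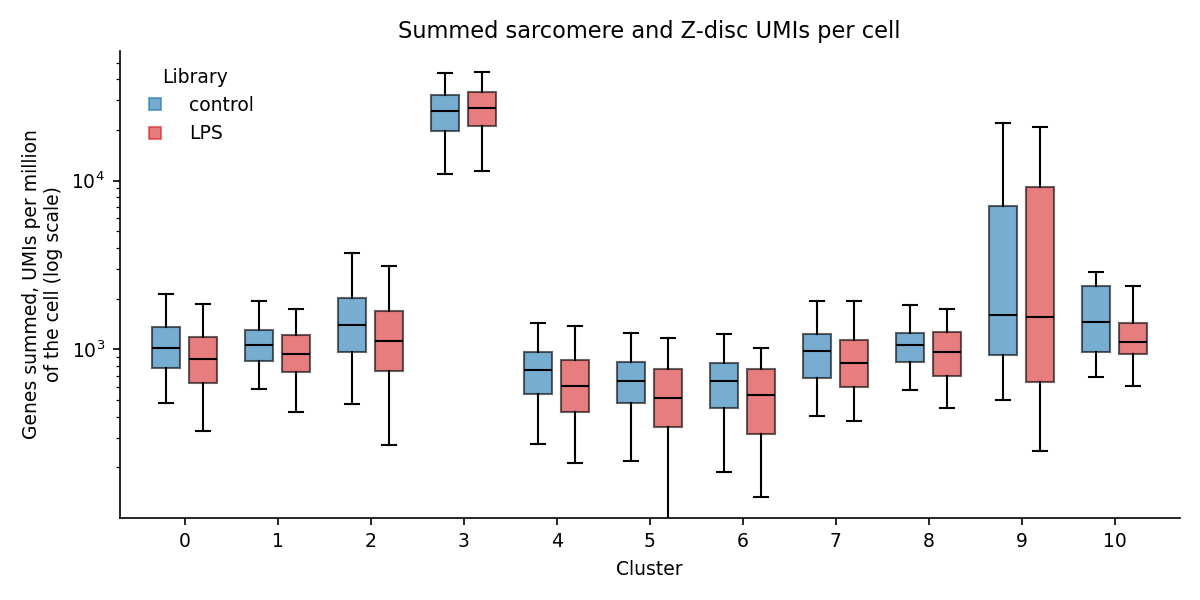
UMIs of the 33 genes summed per cell and divided by the cell's UMIs, in CPM on a log axis, for the 11 clusters and both libraries. Boxes span the middle 50% of cells with the median as a line and whiskers run from the 5th to the 95th percentile, which is 0 and lies off the axis for LPS cells of cluster 5. The medians of cluster 3 (25751 control, 26886 LPS) stand above those of all other clusters, and cluster 9 has the widest spread.

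The label of cluster 3 was checked against markers that are not among the 33 genes. Of 15 cardiomyocyte markers 14 were found, and 13 of these had UMIs in both libraries, with a summed level of 9157 CPM in control and 9291 CPM in LPS cells. *Pln*, the inhibitor of the calcium pump, *Nppa*, atrial natriuretic peptide, and *Cox6a2*, a muscle form of a respiratory subunit, carried most of it, and *Corin* was at 0. Of the ICA markers *Dbh* had 180 and 136 UMIs and *Ddc* 351 and 312 UMIs, *Pnmt* had 1 UMI in each library and *Th* was at 0. All 9 fibroblast markers were detected, at 3913 and 3498 CPM or 32.6% and 32.0% of their level in cluster 0. The lists for endothelial cells (115 and 111 CPM), pericytes (248 and 228 CPM) and smooth muscle (336 and 238 CPM) were at 6.39% to 23.4% of their level in the clusters where those cells lie. Macrophage markers summed to 15.1 and 8.39 CPM, under 1% of cluster 6, with *Cd163* at 0. Mesothelial markers (15.1 and 10.8 CPM), Schwann cell markers (1.98 and 2.19 CPM) and cycling markers (50.4 and 41.6 CPM) were low, and the 2 erythroid genes found summed to 118 control and 7 LPS UMIs. The median mitochondrial share was 17.9% and 17.3%. How the ratio of the sum moved under limits on fibroblast and mitochondrial content is given further below. Beyond that, what other cells and the mitochondrial share contributed to the values was not tested.

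In cluster 3 the 33 genes differed little between LPS and control. Of 29 genes with at least 50 UMIs over both libraries, 0 were past a 1.5-fold difference. The share was 9.78% over all 8465 genes with that minimum there, many of which had fewer UMIs. The median ratio of LPS to control was 1.02 over the 29 genes, with a range from 0.781 to 1.31, and 0.996 over all genes. In 22 of the 29 genes the ratio was within 10% of 1, and the share of all genes this near to 1 was not counted. The counting interval lay above 1 in 7 genes (*Ankrd1*, *Xirp1*, *Trim55*, *Tnnt2*, *Tnnc1*, *Myh7* and *Tnni1*) and below 1 in 2 (*Acta1* and *Asb2*), against 12.9% and 12% of all genes, many of which had fewer UMIs and wider intervals. The 4 genes under 50 UMIs were *Myl2* with 12 and 9 UMIs, *Myom1* with 19 and 15, *Myom2* with 4 and 1, and *Synpo2l* with 3 and 1.

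**Figure D2:**
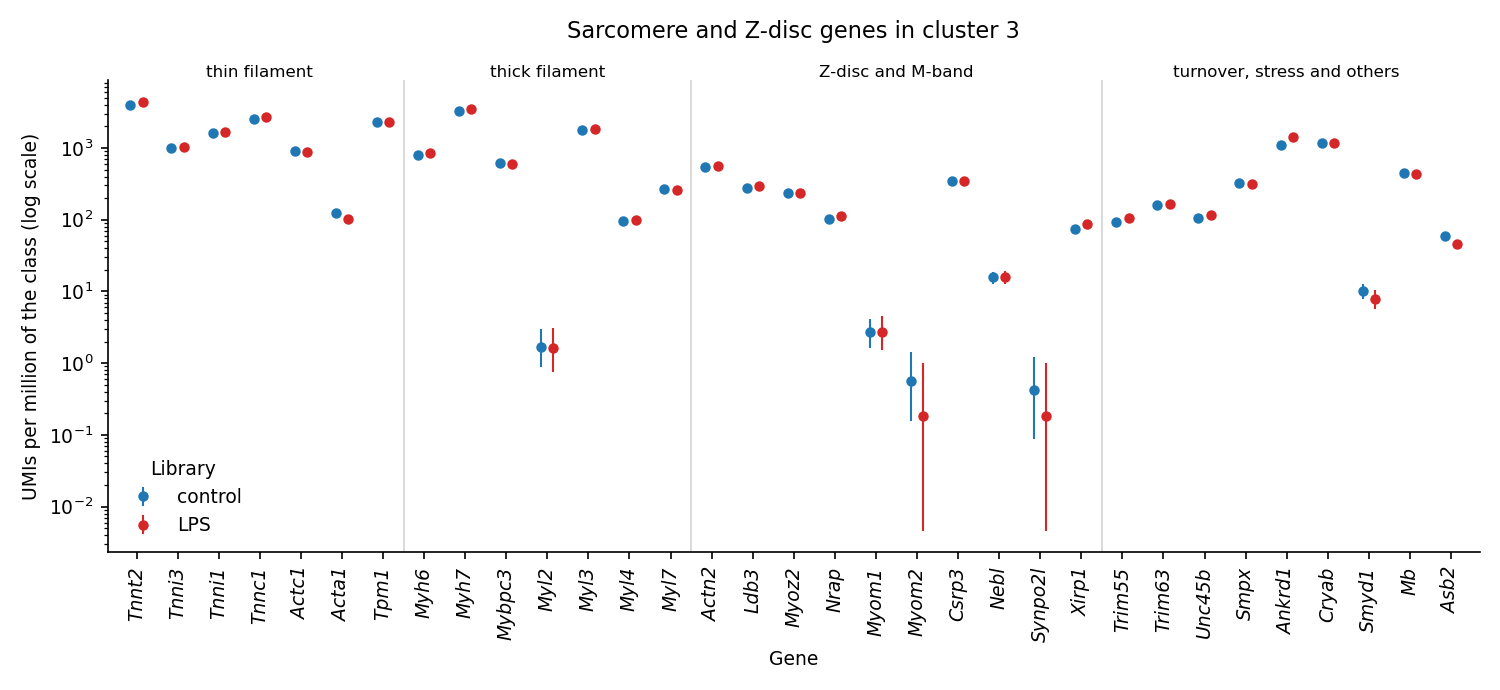
Level of each gene in cluster 3, in CPM on a log axis, ordered by role, for control (blue) and LPS (red) with 95% Poisson intervals, which are smaller than the points for most genes. The pairs of points nearly coincide except for *Ankrd1*, which is higher in LPS cells, and *Acta1*, *Asb2* and *Smyd1*, which are lower, and *Myl2*, *Myom1*, *Myom2* and *Synpo2l* lie near the lower limit of detection.

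Among the 7 thin filament genes the summed level was 12511 CPM in control and 13077 CPM in LPS cells, a ratio of 1.05 (1.03 to 1.06). *Tnnt2* (ENSRNOG00000033734), cardiac troponin T, which ties troponin to tropomyosin, was measured at 4036 CPM in control and 4408 CPM in LPS cells, a ratio of 1.09 (1.07 to 1.11). *Tnnc1* (ENSRNOG00000018943), the calcium-binding troponin C, stood at 2553 and 2699 CPM, a ratio of 1.06 (1.03 to 1.08). The inhibitory subunit was present in both forms, the fetal *Tnni1* at 1598 and 1683 CPM with a ratio of 1.05 (1.02 to 1.08), and the adult *Tnni3* at 995 and 1019 CPM with a ratio of 1.02 (0.988 to 1.06). Of the troponin genes only the interval of *Tnni3* included 1. *Tpm1*, tropomyosin, was level at 2307 and 2291 CPM. The cardiac actin *Actc1* gave 896 and 875 CPM, a ratio of 0.976 (0.940 to 1.01). The skeletal actin *Acta1* (ENSRNOG00000017786), which heart muscle also uses before birth, was lower in LPS cells, at 125 against 101 CPM and a ratio of 0.807 (0.725 to 0.899).

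The 7 thick filament genes summed to 6866 CPM in control and 7100 CPM in LPS cells, a ratio of 1.03 (1.02 to 1.05). *Myh7* (ENSRNOG00000016983), the slow myosin heavy chain of the newborn ventricle, gave 3287 and 3467 CPM, a ratio of 1.05 (1.03 to 1.08). *Myh6*, the fast heavy chain, gave 809 and 840 CPM, and its ratio of 1.04 had an interval that reached below 1 (0.999 to 1.08). *Mybpc3*, myosin-binding protein C, gave 609 and 600 CPM. The essential light chain of the ventricle, *Myl3*, stood at 1800 and 1835 CPM, and that of the atrium, *Myl4*, at 94.5 and 97.6 CPM. *Myl7*, the regulatory light chain of the atrium, gave 265 and 259 CPM, while its ventricular counterpart *Myl2* was at 1.70 and 1.64 CPM, just above the 0.424 and 0.547 CPM that a count of 3 UMIs makes. *Myl2* is a defining marker of ventricular myocytes and was nearly absent, although the tissue was ventricular by the study's methods. Nothing on the origin of the cells is read from this. How the genome annotation treats *Myl2* was not tested. The levels of both light chain pairs overlapped between the libraries within counting error.

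The 10 genes of the Z-disc and M-band summed to 1594 and 1653 CPM, a ratio of 1.04 (1.01 to 1.07). *Actn2*, which cross-links actin at the Z-disc, gave 541 and 558 CPM, *Csrp3* 343 and 350 CPM, *Ldb3*, which binds α-actinin, 275 and 291 CPM, and *Myoz2*, which binds calcineurin there, 236 and 235 CPM. *Nrap*, a scaffold of growing myofibrils, gave 104 and 111 CPM, a ratio of 1.08 (0.965 to 1.20), and *Nebl*, the cardiac nebulin relative, 15.7 and 15.9 CPM. The intervals of these 6 genes included 1. *Xirp1* (ENSRNOG00000037085), an actin-binding protein of the intercalated disc, was the exception in this group, with 74.9 CPM in control and 87.2 CPM in LPS cells and a ratio of 1.16 (1.03 to 1.32). The M-band genes *Myom1* (2.68 and 2.74 CPM) and *Myom2* (0.565 and 0.182 CPM) were barely detected.

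The 9 genes of turnover, stress and other roles summed to 3488 CPM in control and 3826 CPM in LPS cells, a ratio of 1.10 (1.08 to 1.12). Most of that difference was *Ankrd1* (ENSRNOG00000018598), the stretch-responsive ankyrin repeat protein that binds titin and also enters the nucleus, which gave 1106 CPM (7832 UMIs) in control and 1445 CPM (7919 UMIs) in LPS cells. Its ratio of 1.31 (1.27 to 1.35) was the highest of the 29. *Trim55*, a titin-binding ubiquitin ligase, gave 94.4 and 107 CPM, a ratio of 1.14 (1.02 to 1.27), whereas its relative *Trim63*, the ligase of muscle atrophy, gave 163 and 168 CPM, a ratio of 1.03 (0.948 to 1.13). *Unc45b*, the chaperone of myosin folding, stood at 105 and 115 CPM, a ratio of 1.10 (0.989 to 1.23). *Cryab*, a small heat-shock protein that protects desmin and titin, stood at 1181 and 1188 CPM, *Mb*, the oxygen carrier myoglobin, at 447 and 431 CPM, and *Smpx* at 323 and 317 CPM, all with intervals that included 1. *Asb2* (ENSRNOG00000051619), which targets filamins for degradation, was lower in LPS cells at 59.3 against 46.3 CPM, a ratio of 0.781 (0.666 to 0.915). *Smyd1*, a methyltransferase that acts with myosin chaperones, had a similar ratio of 0.782 on 71 and 43 UMIs, with an interval from 0.523 to 1.16.

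**Figure D3:**
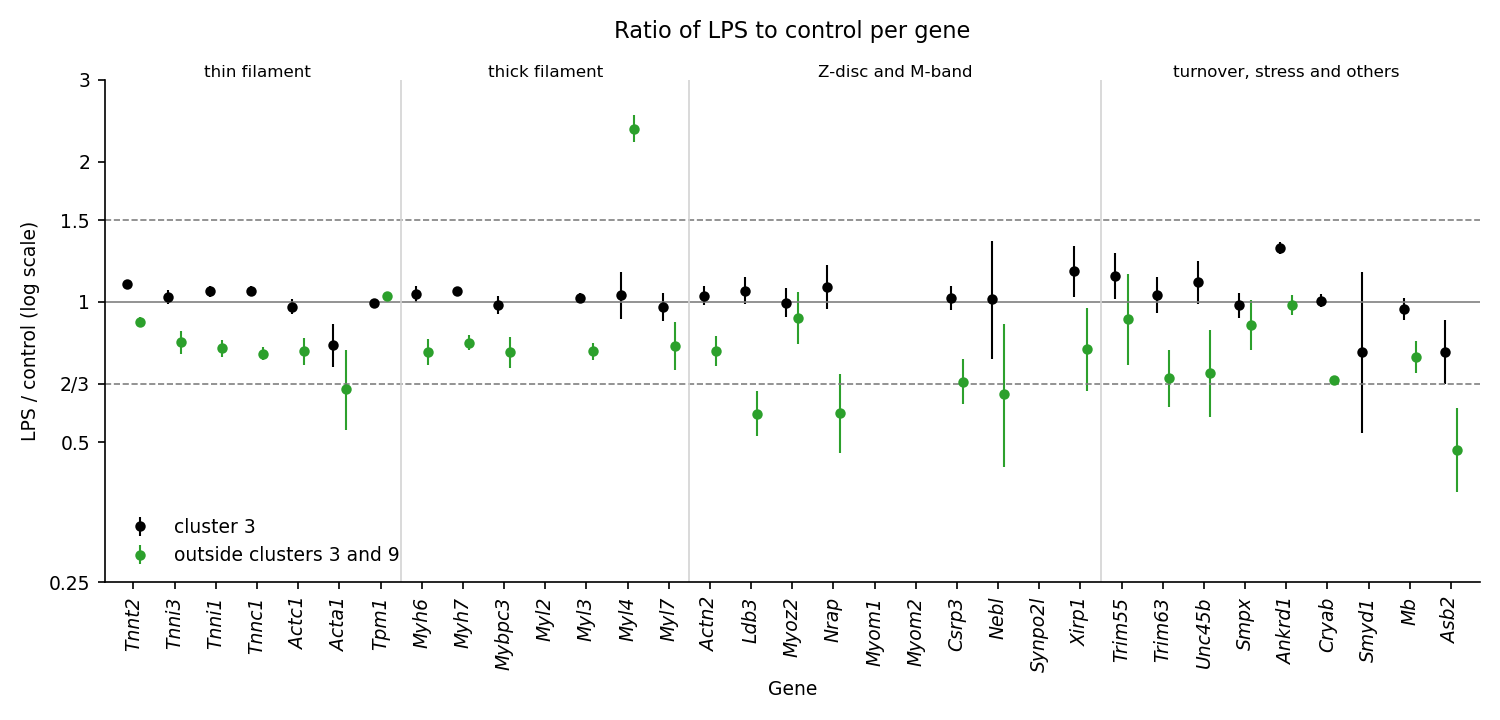
Ratio of LPS to control for each gene with at least 50 UMIs, on a log axis with 95% counting intervals, in cluster 3 (black) and in all cells outside clusters 3 and 9 (green). The solid line marks equal levels and the dashed lines a 1.5-fold difference. The black points lie between 0.781 and 1.31, and the green points lie lower for most genes but far higher for *Myl4*, at 2.35.

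The direction of the summed difference depended on how cells of unlike depth were set against each other. In both libraries the summed level was lower in cells with more UMIs. In cells of 4000 to 6000 UMIs it was 29636 CPM in control (156 cells) and 29080 CPM in LPS (492 cells), a ratio of 0.981 (0.967 to 0.996). In cells of 6000 to 10000 UMIs it was 27284 and 24656 CPM, a ratio of 0.904 (0.894 to 0.914), and in cells of 10000 to 20000 UMIs 19731 and 14998 CPM, a ratio of 0.760 (0.745 to 0.775). In these 3 bins the sum was thus lower in LPS cells, although it was higher over the whole cluster, whose LPS cells were shallower. The bins matched depth only roughly, with medians of 5440.5 UMIs in control and 4935.5 in LPS cells in the shallowest. In cells under 5000 UMIs (36 control and 394 LPS cells) the ratio of the sum was 1.02 (0.992 to 1.05). When the cells were instead ranked by UMIs within their own library and taken in steps of 25%, the ratio was 1.04, 1.04, 1.09 and 1.03 from the shallowest to the deepest step. Fibroblast markers moved with depth as well, from 2452 CPM in the shallowest to 6140 CPM in the deepest step in control cells. In LPS cells they moved from 1592 to 6228 CPM. In the 3 bins of UMI counts their ratio of LPS to control was 0.684 (0.648 to 0.721), 1.63 (1.58 to 1.68) and 1.43 (1.39 to 1.47). Their part in the ratios of the sum by depth was not tested. When only cells with at least 5000 UMIs were kept (800 control and 535 LPS cells), 14 of the 19 genes with a ratio above 1 had one below 1. Among them were 3 of the 7 genes whose interval had lain above 1, *Tnni1* at 0.979, *Myh7* at 0.932 and *Xirp1* at 0.990, and of the others *Actn2* was at 0.896 and *Myl4* at 0.854. How many of all genes moved below 1 in these deeper cells was not counted. *Ankrd1* was higher in LPS cells in each of the 4 steps of 25%, with ratios of 1.37, 1.15, 1.28 and 1.43, and in the 3 bins of UMI counts its ratio was 1.33 (1.24 to 1.43), 1.18 (1.12 to 1.24) and 1.04 (0.953 to 1.13).

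**Figure D4:**
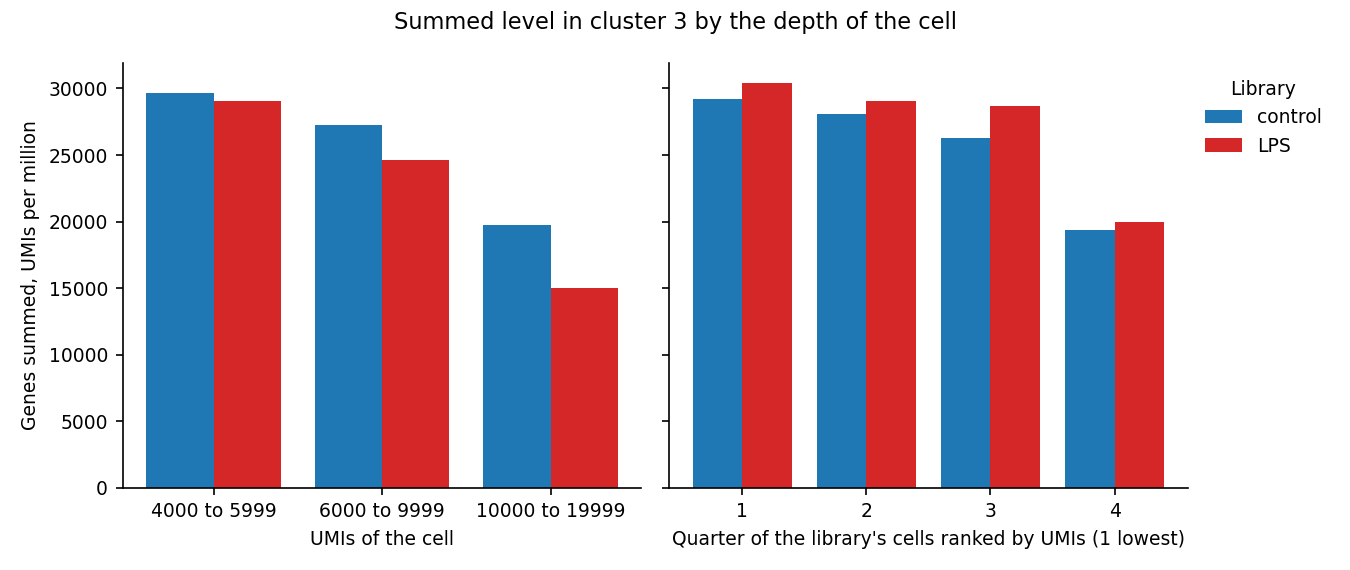
Summed level of the 33 genes in cluster 3, in CPM from 0, for control (blue) and LPS (red), by the UMI count of the cell (left) and by the rank of the cell within its own library in steps of 25% (right). On the left the LPS bars are lower in each bin shown (14998 against 19731 in the deepest), and on the right they are higher in each step.

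The use of paired isoforms in cluster 3 was nearly the same in both libraries. *Myh6* made up 19.8% (19.3 to 20.2) of the UMIs of *Myh6* and *Myh7* in control and 19.5% (19.0 to 20.02) in LPS cells. *Tnni3* made up 38.4% (37.7 to 39.1) and 37.7% (36.9 to 38.5) of the inhibitory troponins. *Acta1* made up 12.3% (11.5 to 13.1) and 10.4% (9.57 to 11.2) of the actin pair, the only pair whose intervals did not overlap. *Myl4* made up 4.99% and 5.05% of *Myl4* and *Myl3*, and *Myl7* 99.4% of *Myl7* and *Myl2* in both. The last share rests on only 12 and 9 *Myl2* UMIs, and whether *Myl2* was counted in full was not tested. Reads from near-identical stretches of such paralogs may have been split between them or dropped in counting, so these shares are uncertain.

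Single cells differed in isoform use by more than counting allowed. Over the 824 control and 916 LPS cells with at least 5 UMIs of the heavy chains, with no thinning, the variance of the *Myh6* share was 4.10 and 3.39 times the binomial one. The median cell was at 16.7% in both libraries, and 39 and 49 cells were above 50%. For *Tnni3* the variance was 1.76 and 1.72 times the binomial one, and 151 and 186 cells were above 50%. For *Acta1* it was 2.87 and 2.67 times, over 567 control and 432 LPS cells with at least 5 UMIs of the actins.

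To compare detection at equal depth, each cell was thinned to 3000 UMIs. *Tnnt2* was then seen in 100% (99.6 to 100) of control and 99.9% (99.4 to 100) of LPS cells of cluster 3, *Tnnc1* in 98.9% and 99.0%, and *Myh7* in 98.0% and 98.5%. In the fibroblasts of cluster 0, which should lack these genes, *Tnnt2* had a UMI in 23.7% and 22.0% and *Tnnc1* in 15.3% and 13.0% of cells, at median depths of 12968 and 9822 UMIs before thinning. *Ankrd1* was seen in 81.1% (78.3 to 83.7) of control and 89.1% (86.9 to 91.0) of LPS cells of cluster 3, against 6.61% and 6.51% in cluster 0. *Unc45b* was seen in 26.6% (23.6 to 29.7) and 33.0% (30.0 to 36.2) and *Nrap* in 27.5% (24.5 to 30.7) and 32.4% (29.4 to 35.5). In 18 of the 29 genes the share was higher in LPS cells after thinning to 3000 UMIs, but after thinning to 1500 UMIs in 13, so that no direction over the genes can be read from it. Without thinning, where the control cells were deeper, it was higher in 1, *Ankrd1*, at 93.9% and 94.5%.

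The genes differed in how their UMIs were spread over the cells of cluster 3. At 3000 UMIs per cell, the variance over the mean (Fano factor, about 1 for counting error alone) had a median of 1.75 in control and 1.62 in LPS cells over the 29 genes. It was highest for *Myl7*, 4.68, in control cells and for *Myh7*, 3.95, in LPS cells, with *Ankrd1* at 3.76 and 3.63. The 10% of cells with the most *Myl7* held 62.7% and 60.9% of its UMIs, and for *Tnnt2* the 10% of cells richest in it held 18.9% and 19.0%. Such a share also depends on the level of the gene. *Tnnt2* had Fano factors of 2.55 and 2.89. The less abundant *Unc45b*, at 1.05 and 1.01, had 47.1% and 42.9% of its UMIs in its richest 10% of cells. Cells with 10 or more *Myl7* UMIs numbered 10 in control and 4 in LPS. They held a mean of 2.40 and 1.75 UMIs of the other atrial light chain *Myl4*, against 0.278 and 0.304 in cells without *Myl7*, and 26.5 and 20.3 UMIs of *Nppa* against 5.68 and 4.75. Their *Myh7* means, 8 and 12.5, lay near the 10.2 and 10.8 of cells without *Myl7*. Genes not particular to the atrium were higher too, *Tnnt2* at 19 and 33 against 12.4 and 13.5. *Tnnc1* was at 13.5 and 11.25 against 7.42 and 7.98, and *Tnni1* at 6.7 and 11 against 4.86 and 5.05. The *Myl4* means rested on 24 and 7 UMIs, with up to 11 and 5 in 1 cell. As a description over 836 and 926 cells of the same libraries, Spearman's rho between pairs of genes had a median of 0.114 and 0.115 over 300 pairs. The highest were *Myl3* with *Tpm1* in control (0.483) and *Tnnc1* with *Myl3* in LPS cells (0.450).

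*Dbh*, the enzyme that makes norepinephrine and marks ICA cells, had a UMI in 7.66% (5.95 to 9.67) of control and 8.42% (6.72 to 10.4) of LPS cells of cluster 3 after thinning to 3000 UMIs, against 0.182% and 0.0854% of the fibroblasts of cluster 0. Cells of cluster 3 with and without such a UMI both carried the contractile genes. A cell without a *Dbh* UMI may still express the gene, and how many cells carried a stray UMI was not tested. In control cells the sum was 23547 CPM (23299 to 23797) in 156 cells with *Dbh* and 24695 CPM (24566 to 24826) in 680 cells without, and in LPS cells 25279 CPM (24914 to 25648) in 121 cells and 25713 CPM (25569 to 25857) in 808. With both the genes and *Dbh* read in cells thinned to 3000 UMIs, it was 26271 and 26202 CPM in control and 27299 and 27358 CPM in LPS cells, and the intervals overlapped in both libraries. Without thinning, cells with *Dbh* were deeper than those without, at medians of 8200 against 7454.5 UMIs in control and 5379 against 5228.5 in LPS. By gene in these unthinned cells, the ratio of cells with *Dbh* to those without spanned 0.723 to 1.49 (control) and 0.666 to 1.21 (LPS). *Nebl*, a gene of few UMIs, was at one end in each. The median ratio was 0.943 and 1.02, beside 1.02 and 0.998 over all genes. The interval lay below 1 in 7 of the 29 genes in control and 4 in LPS cells, against 2.22% and 2.34% of all genes. It lay above 1 in 0 in either, against 3.95% and 2.6%. Many of all genes had fewer UMIs and wider intervals, and the part of depth in these ratios was not tested. *Tnnt2* (0.941 and 0.911) and *Myl7* (0.723 and 0.784) were below 1 in this way in both libraries.

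Cluster 9, which has no cell type in the cell table, held 66 control and 58 LPS cells, and its summed level was 18.0% and 17.3% of that of cluster 3. The sum did not come evenly from its cells. Cells over 10000 CPM, a limit set after the values were seen, numbered 12 in control and 14 in LPS and held 61.6% and 65.6% of the contractile UMIs of the cluster. Their median mitochondrial share was 47.4% and 57.3% and their median fibroblast marker level 1872 and 1053 CPM. In the other 54 and 44 cells the mitochondrial share was 10.3% and 9.74% and the fibroblast marker level 19437 and 18845 CPM, and the summed level of the contractile genes was 1988 and 1840 CPM.

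Over all cells of cluster 9, the 2 unlike sets above pooled, the percentage of the cluster 3 level differed between genes. *Myh6* stood at 35.99% in control and 33.2% in LPS cells of its level in cluster 3, *Mybpc3* at 31.7% and 35.2%, *Actn2* at 28.3% and 22.4% and *Myh7* at 24.9% and 21.9%. *Tnnc1* stood at 10.3% and 9.80%, and *Myoz2* at 6.59% and 3.04%. The share of *Myh6* among the heavy chains was 26.3% (22.4 to 30.3) and 26.9% (21.9 to 32.4) there, with intervals above those of cluster 3. A share above that of cluster 3 was not particular to cluster 9. It was 24.2% and 23.5% in cluster 0, 24.9% and 23.3% in cluster 2, and 24.6% and 24.6% in cluster 4. Of 13 genes with at least 50 UMIs in cluster 9, 2 were past 1.5-fold between LPS and control (17.1% of 1674 genes were), *Ankrd1* at 1.79 (1.21 to 2.66) and *Cryab* at 0.622 (0.445 to 0.861).

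Outside clusters 3 and 9 most of the contractile genes sat at a small percentage of their level in cluster 3. Without *Tpm1*, *Cryab* and *Myl4*, which were taken out after their values were seen, the median over 26 genes was 2.13% in control and 1.52% in LPS cells. The range was 1.32% (*Smpx*) to 4.22% (*Nebl*) in control and 0.942% (*Smyd1*) to 2.64% (*Nebl*) in LPS cells. In cluster 0 the medians were 2.04% and 1.45%. Of other cardiomyocyte genes, *Pln* (1.94% and 1.45%) and *Nppa* (1.78% and 1.43%) stood near these medians there. *Casq2* (1.03% and 0.855%) and *Trdn* (0.989% and 0.834%) stood lower. Fluid in a droplet carries free RNA, and whether these UMIs came from the cells that carry them was not tested. In cluster 2, *Tnnt2* (4.62% and 3.96%) and *Asb2* (10.3% and 3.34%) stood above the median of 2.14% and 1.59%. Single cells over 10000 CPM lay in clusters 6 and 8 in control and in clusters 2, 4 and 6 in LPS, 1 cell in each, and without it the control level of cluster 8 was 1066 in place of 1297 CPM.

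The sum outside clusters 3 and 9 was 1125 CPM in control and 960 CPM in LPS cells, a ratio of 0.853 (0.847 to 0.860), and 0.821 (0.811 to 0.831) without *Tpm1*, *Cryab* and *Myl4*. Of 28 genes with at least 50 UMIs, 6 were past 1.5-fold there, against 26.3% of 13107 genes. *Myl4* was higher in LPS cells, and *Acta1*, *Ldb3*, *Nrap*, *Nebl* and *Asb2* were lower, between 0.481 for *Asb2* and 0.649 for *Acta1*. The median ratio was 0.783 over the 28 genes and 0.909 over all genes measured. *Tpm1*, which non-muscle cells also use, was nearly equal at 337 and 347 CPM, a ratio of 1.03 (1.02 to 1.04), and *Ankrd1* was at 24.6 and 24.2 CPM, a ratio of 0.985 (0.938 to 1.03).

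*Cryab* was present well above most of the other genes outside cluster 3, at 28.9% of its cluster 3 level in control and 19.5% in LPS cells. It was at 341 CPM in control and 232 CPM in LPS cells there, a ratio of 0.680 (0.670 to 0.690), while it was equal in cluster 3. The lower level was seen in each of clusters 0, 1, 2, 4, 5, 6, 7, 9 and 10, with ratios from 0.592 in cluster 10 to 0.691 in cluster 0, and the interval of cluster 8 (0.868, 0.745 to 1.01) included 1. In cluster 0, after thinning *Cryab* was seen in 55.0% and 41.4% and *Tpm1* in 59.1% and 62.4% of the 6600 control and 7024 LPS cells. *Cryab* overlaps *Hspb2* in GRCr8, and whether any reads were shared with that gene was not tested.

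*Myl4* (ENSRNOG00000050675), the atrial essential light chain, was the only one of the 28 genes past 1.5-fold in the direction of LPS outside clusters 3 and 9, where 6.83% of all genes were. It was at 9.24 CPM (1341 UMIs) in control and 21.8 CPM (2651 UMIs) in LPS cells, a ratio of 2.35 (2.204 to 2.52). In the fibroblasts of cluster 0 it was 9.02 and 20.4 CPM, a ratio of 2.26 (2.08 to 2.47), and in clusters 1 and 7, also named fibroblasts, the ratios were 1.95 (1.70 to 2.24) and 3.04 (1.56 to 6.39). In the endothelial clusters 4 and 5 they were 3.15 (2.39 to 4.20) and 6.54 (3.91 to 11.6), in the macrophages of cluster 6, 2.80 (1.41 to 5.86), and in clusters 2 and 8, 3.40 (2.52 to 4.66) and 3.71 (1.65 to 9.41). In all 8 of these clusters the interval lay above 1. In cluster 3 the ratio was 1.03 (0.920 to 1.16) and in cluster 9, on 9 and 5 UMIs, 0.894 (0.235 to 2.97). Cluster 10 had 4 and 1 UMIs. These ratios depend on the control level, which was far higher in cluster 3, at 94.5 CPM. As a difference, LPS cells were higher by 7.49 CPM (cluster 6) to 22.1 CPM (cluster 5) in the 8 clusters. In cluster 3 they were higher by 3.1 CPM, and its interval leaves room for the 11.4 CPM of cluster 0. Whether the rise in CPM differed between cluster 3 and the others was not tested.

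After thinning, *Myl4* was seen in 2.59% (2.22 to 3.00) of control and 6.16% (5.61 to 6.75) of LPS cells of cluster 0, or in 11.4% and 18.5% of the unthinned cells. Its share of *Myl4* and *Myl3* UMIs in cluster 0 was 19.3% (18.1 to 20.5) in control and 40.9% (39.3 to 42.5) in LPS cells, while it was near 5% in cluster 3 in both libraries. The ratio of LPS to control for *Myl3* outside clusters 3 and 9 was 0.783 (0.751 to 0.817). The genes next to *Myl4* in GRCr8 did not move with it. *Cdc27* had a ratio of 1.08 (0.939 to 1.24) in cluster 0, and *Itgb3* had 49 and 27 UMIs there.

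**Figure D5:**
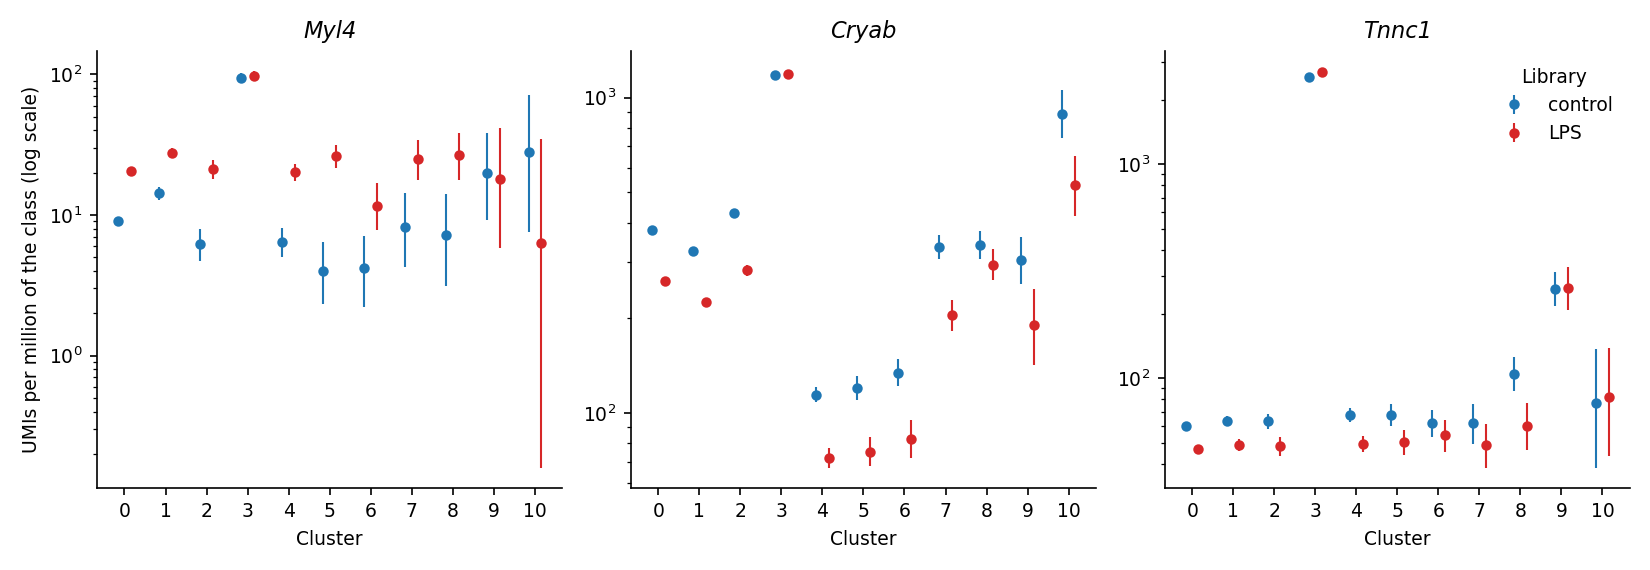
Levels of *Myl4*, *Cryab* and *Tnnc1* in the 11 clusters, in CPM on log axes that differ between panels, for control (blue) and LPS (red) with 95% Poisson intervals. Outside clusters 3, 9 and 10 *Myl4* is higher in LPS cells and *Cryab* and *Tnnc1* are lower, and in cluster 3 the points of each gene nearly coincide.

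A further list of sarcomere, Z-disc and costamere genes was looked at in cluster 3. Of its 55 genes 50 were found and 33 had at least 50 UMIs. Of these, 0 were higher past 1.5-fold in LPS cells (4.38% of all genes were) and 1 was lower (5.4% of all were), *Tnnt1*, the slow skeletal troponin T, at 0.603 on 60 and 28 UMIs. The median ratio was 0.936, with a range from 0.603 to 1.31. This median was lower than the 1.02 of the 29 contractile genes described above and the 0.996 of all genes. The interval lay above 1 in 4 and below 1 in 5 of the 33 genes with that minimum, against 12.9% and 12% of all genes. Of the 3 with the most UMIs, *Des*, the intermediate filament desmin, gave 1254 and 1203 CPM, a ratio of 0.959 (0.929 to 0.991), *Hspb7*, a small heat-shock protein, 542 and 447 CPM, a ratio of 0.825 (0.784 to 0.868), and *Pdlim3*, which binds α-actinin, 276 and 265 CPM, a ratio of 0.962 (0.898 to 1.03).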

How the data were processed

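Cells of 1 control and 1 LPS library were sequenced, and the submitters' processing notes name Cell Ranger 2.2.0 and Seurat 2.3.4. By the study's methods Seurat joined both libraries and clustered the cells. The deposited values are raw counts, whole UMIs per gene and cell, for the cells that the authors kept, with the cluster of each cell in a second table. The genome build and annotation behind the counts were not given in the sources used here. The genes and the lists for cardiomyocytes, ICA cells, fibroblasts, macrophages, endothelial cells, pericytes, smooth muscle, mesothelium, erythroid, Schwann and cycling cells and for other sarcomere genes were chosen with earlier results of these data known.

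UMIs were summed per gene, cluster and library and divided by all UMIs of the class. Genes with at least 50 UMIs over both libraries of a class entered ratios, and a difference past 1.5-fold was counted. No test was possible with 1 library per condition. Intervals (95%) cover counting error only. The depth was 152624585 UMIs in control and 127580475 in LPS. For shares of cells, each cell was thinned to 3000 UMIs at random and shallower cells were left out (3 LPS cells of cluster 3). A count of 3 UMIs served as floor. No doublet caller was run, and as an alternative the 8% of cells with the most UMIs were removed. All listed genes were named, and of the other sarcomere genes at most 4 in each direction past 1.5-fold, those with the largest ratios, and the 3 with the most UMIs. Alternatives were other minimums and folds, other denominators, limits on UMIs, mitochondrial and fibroblast content, and merged clusters. The ratios and the thinning were checked on simulated Poisson counts. That is the model the intervals assume, so spread between cells beyond it was not covered. Calculations used scipy 1.17.1, numpy 2.4.6 and pandas 2.3.3 under Python 3.11.15, and plots matplotlib 3.10.9.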

Additional observations from a re-analysis of the deposited data

Results flagged for a closer look

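Of 19 genes with a ratio above 1 in cluster 3, 18 had one below 1 outside clusters 3 and 9, and 1 gene was the other way. Over all genes the median ratio was 0.996 in cluster 3 and 0.909 outside, so ratios below 1 outside were not particular to these genes. The share of all genes on opposite sides of 1 was not counted. For the sum and for 5 of the genes both intervals excluded 1, and the difference between the 2 ratios was not tested. The ratio of LPS to control was 1.05 in cluster 3 and 0.853 outside for the sum. For *Tnnt2* it was 1.09 and 0.907, for *Tnni1* 1.05 and 0.796, for *Tnnc1* 1.06 and 0.775, for *Myh7* 1.05 and 0.817, and for *Xirp1* 1.16 and 0.791. In cells of cluster 3 with at least 5000 UMIs, the ratios of *Tnni1*, *Myh7*, *Xirp1* and the sum were below 1 as well.

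The cells without a cluster, which enter no comparison, carried the genes as well. The sum was 4359 CPM over 8 LPS cells (106 UMIs) and 2144 CPM over 2 control cells (18 UMIs), and the mitochondrial share of these cells was 87.8% and 87.5%.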

How the results depend on the processing

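In cluster 3 the ratio for the summed level was 1.05. It was 1.04 without mitochondrial UMIs in the denominator, 1.04 in cells under 20% mitochondrial UMIs, 1.03 without the 8% of cells with the most UMIs, 1.06 without the 25% of cells highest in fibroblast markers and 1.06 for clusters 3 and 9 together. It was on the other side of 1 in cells with at least 5000 UMIs, at 0.975, and over all clustered cells, at 0.915, where the clusters enter in different proportions. Of the 19 genes with a ratio above 1, 14 were below 1 in cells with at least 5000 UMIs, 16 over all clustered cells, 5 in cells under 20% mitochondrial UMIs and at most 2 under each of the other 7 alternatives. Of those whose interval had excluded 1, *Tnni1*, *Myh7* and *Xirp1* were at 0.979, 0.932 and 0.990 in cells with at least 5000 UMIs, and over all clustered cells *Tnnt2* was at 0.977, *Tnni1* at 0.917, *Tnnc1* at 0.912, *Myh7* at 0.938 and *Xirp1* at 0.994. The share of all genes that crossed 1 under these alternatives was not counted, and the cause was not tested. The number of genes past the fold was 0 at 1.5-fold, where 9.78% of all genes were past it. It was 3 at the lowest fold tried (*Ankrd1*, *Smyd1* and *Asb2*), and the share of all genes at that fold was not counted. The interval of *Smyd1* included 1.

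The summed level in cluster 3 was 29477 and 30556 CPM in control and LPS cells without mitochondrial UMIs, 26127 and 27311 CPM as a mean over cells, and 26816 and 27641 CPM without the 8% of deepest cells. In cluster 9 it was 5684 and 5697 CPM, 5074 and 5593 CPM, and 5117 and 5056 CPM under the same 3 alternatives, and 1988 and 1840 CPM without cells over 10000 CPM. The number of genes with a higher share of LPS cells was 18 at 3000 UMIs, 13 at 1500 UMIs and 1 not thinned. As a median over cells, *Myh6* made up 16.7% and 16.7%, *Acta1* 5.26% and 0%, *Myl7* 100% and 100% and *Myl4* 0% and 0% of its pair, and in cells with at least 5000 UMIs *Myl4* made up 4.62% in LPS. The alternatives for *Myl4* and *Cryab* outside clusters 3 and 9, under which their ratios lay between 2.34 and 2.45 and between 0.672 and 0.683, the limit of 10000 CPM and the bins of depth were chosen after seeing the data.

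No paired analysis was possible because there was 1 library per condition. Genes of few UMIs (*Myl2*, *Myom1*, *Myom2* and *Synpo2l*) entered no ratio in cluster 3, where a count of 3 UMIs is 0.424 CPM in control and 0.547 CPM in LPS cells.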
